A study of Mus musculus with 2 samples.

Results

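The transcription factors that define T cell and natural killer (NK) cell lineages were followed in single-cell RNA sequencing data of tumors grown in mice from MC38, a colon carcinoma line of the mouse. The genes Tcf7, Lef1, Tbx21, Eomes, Gata3, Rora, Foxp3, Ikzf2 and Bcl11b were chosen by name, and all 9 were found by symbol among the 32285 genes of both matrices. CD45+ cells, which are leukocytes, were sorted from tumors of WT mice, of both sexes and 8 to 10 weeks old by the study's general methods, that were left unirradiated (Control) or that had received 20 Gy of tumor-local ionizing radiation 4 days earlier (IR), with 4 tumors pooled per library as those methods are read here. There was thus 1 library per group, so no test could be run, every interval covers counting error only, and differences between IR and Control cannot be told apart from differences between the 2 libraries. The sample records also carry the narrower cell label CD45+CD11b+Ly6Chi, and the T and NK cells described here fall outside that label.

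RNA was counted in UMIs, molecular barcodes that let each captured molecule be counted once. Among barcodes with at least 1000 UMIs and at most 5 UMIs of the macrophage genes C1qa, C1qb and C1qc, the T cell gate took those with a UMI of Cd3d or Cd3g, which encode parts of the T cell receptor complex. The NK cell gate took those with a UMI of Ncr1, which encodes the NK receptor NKp46, and none of Cd3d or Cd3g. The T cell gate held 644 of 2445 Control barcodes (26.3%, 95% exact binomial interval 24.6% to 28.1%) and 539 of 2668 IR barcodes (20.2%, 18.7% to 21.8%). The NK cell gate held 245 (10.0%, 8.86% to 11.3%) and 265 (9.93%, 8.82% to 11.1%). No barcode stood in a T or NK cell gate of both libraries. None of the 9 factors was used to set either gate.

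These factors bind DNA and switch on the gene programs of lymphocyte lineages. Tcf7 (TCF-1) and Lef1 act in early T cell development and in naive and memory-like T cells. Bcl11b holds T cells to their lineage and restrains NK genes. Tbx21 (T-bet) and Eomes are related T-box factors that drive cytotoxic and interferon-gamma programs in T and NK cells, and Eomes separates circulating NK cells from the tissue-resident innate lymphocytes called ILC1. Gata3 directs type 2 helper T cells and is needed across T cell development. Rora works in innate lymphoid cells and in helper and regulatory T cells. Foxp3 is the master factor of regulatory T cells, and Ikzf2 (Helios) is an Ikaros-family factor abundant in them.

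Eomes lies at chr9:118478212-118486132 on the plus strand and Rora at chr9:68653786-69388246 on the plus strand (GENCODE vM21 on GRCm38, the mm10 build). Tcf7 is at chr11:52252371-52283014 and Tbx21 at chr11:97098071-97115331, both on the minus strand. Lef1 is at chr3:131110471-131224356 and Foxp3 at chrX:7573644-7595245, both on the plus strand. Gata3 (chr2:9857078-9890034), Ikzf2 (chr1:69531214-69687245) and Bcl11b (chr12:107910403-108003602) are on the minus strand. All 9 are protein-coding genes. Foxp3 shares its strand and part of its span with the noncoding gene Flicr, Gata3 with 9230102O04Rik, and Ikzf2 with 2 intronic noncoding genes, so reads of these members may be split between overlapping genes.

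The 250 bases before an annotated start are shown for 3 genes. Eomes, called higher in T cells, and Rora, called lower in NK cells, kept those calls under every alternative tried, and Foxp3 is the member most restricted to 1 subset. Sequences are from RefSeq on GRCm38.p6, 5′ to 3′ on the gene's strand, and capitals mark any match to 5 searched motifs.
Eomes, chr9:118477939-118478188, plus strand: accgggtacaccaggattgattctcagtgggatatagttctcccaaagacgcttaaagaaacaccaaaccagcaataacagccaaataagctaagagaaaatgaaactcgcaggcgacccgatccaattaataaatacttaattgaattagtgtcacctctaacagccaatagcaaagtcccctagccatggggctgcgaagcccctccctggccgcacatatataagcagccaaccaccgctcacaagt
Rora, chr9:68653536-68653785, plus strand: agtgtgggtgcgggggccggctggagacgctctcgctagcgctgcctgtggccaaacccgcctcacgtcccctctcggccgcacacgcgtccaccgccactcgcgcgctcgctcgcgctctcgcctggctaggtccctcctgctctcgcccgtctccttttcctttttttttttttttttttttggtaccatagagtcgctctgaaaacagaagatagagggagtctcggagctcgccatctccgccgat
Foxp3, chrX:7580233-7580482, plus strand: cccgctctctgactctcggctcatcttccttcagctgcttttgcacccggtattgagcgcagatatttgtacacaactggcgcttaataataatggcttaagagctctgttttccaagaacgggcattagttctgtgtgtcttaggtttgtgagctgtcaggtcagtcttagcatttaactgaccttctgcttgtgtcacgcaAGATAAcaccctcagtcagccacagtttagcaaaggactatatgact

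The motifs searched, on both strands, were AGGTGTGA for T-box factors, CTTTGAT for TCF-1 and LEF-1, AGATAA for GATA factors, TGTGGTTT for RUNX factors and TAGGTCA for ROR factors. Among 13 such windows of 8 matched members, 1 match was found, the GATA letters in the Foxp3 window above. The other Foxp3 window, at chrX:7579426-7579675, held no match, and both lie within the annotated span of the gene. The GATA letters occurred in 9.99% of 32851 windows of the same length, the TCF and LEF letters in 3.21%, the ROR letters in 2.23%, the RUNX letters in 1.49% and the T-box letters in 1.12%. The Rora window was 61.2% G or C with 26 CpG pairs and the Eomes window 46.4% with 8, against medians of 52.4% and 6 over all windows. A match describes letters only and shows no binding.

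Depth and purity differed between the libraries. The Control library held 48593879 UMIs and the IR library 42406461. The median T cell barcode had 4841 UMIs in Control and 7943 in IR, and the median NK cell barcode 7575 and 9524. A level in CPM is a gene's UMIs per 1000000 UMIs of the gate, so it is relative to a total per cell that was larger in IR. UMIs per cell are therefore given beside the CPM. As a check of the gates, all 10 NK marker genes on a fixed list were called higher in NK than in T cells in both libraries. That list includes Eomes, so this check is not separate from the Eomes result below. Of 10 T cell markers, 8 in Control and 7 in IR were called lower in NK cells. Among T-gate cells, 11.3% in each library had no UMI of Cd3e, Trac, Trbc1 or Trbc2, and in the NK gate these were 10.6% and 6.42%, so this feature did not tell the gates apart. The 5 neutrophil markers summed to 12.8 CPM in Control and 998 CPM in IR in the T gate (Retnlg at 0 in Control), and to 3.01 and 81.9 CPM in the NK gate (Retnlg and Cxcr2 at 0 in Control). Cells with at least 1 C1q UMI went the other way, at 38.8% of Control and 19.3% of IR T-gate cells, and 32.7% and 13.6% of NK-gate cells. Cells with over 0.2% of UMIs from 9 myeloid genes made up 19.1% of Control and 32.7% of IR T-gate cells, and 6.53% and 10.2% of NK-gate cells. The 10 macrophage markers summed to 2133 and 2674 CPM in the T gate and to 535 and 934 CPM in the NK gate, with a UMI of each. The part of this RNA in the results was not tested, and the main values are also given without these cells.

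The first comparison set NK cells against T cells within each library. A gene was called when its CPM differed at least 1.5 times and the exact 95% Poisson intervals did not overlap, among genes with at least 20 UMIs over both sums. In Control, Eomes and Tbx21 were higher in NK cells, and Rora, Foxp3, Ikzf2 and Bcl11b were lower. That is 2 of 9 members higher, where 3.19% of 9889 genes tested were, and 4 lower, where 13% were. In IR, 1 of 9 was higher and the same 4 genes were lower, against 3.52% and 17.4% of 10694 genes. The T cell and NK cell levels of all 9 genes in both libraries are plotted below.

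**Figure D1:**
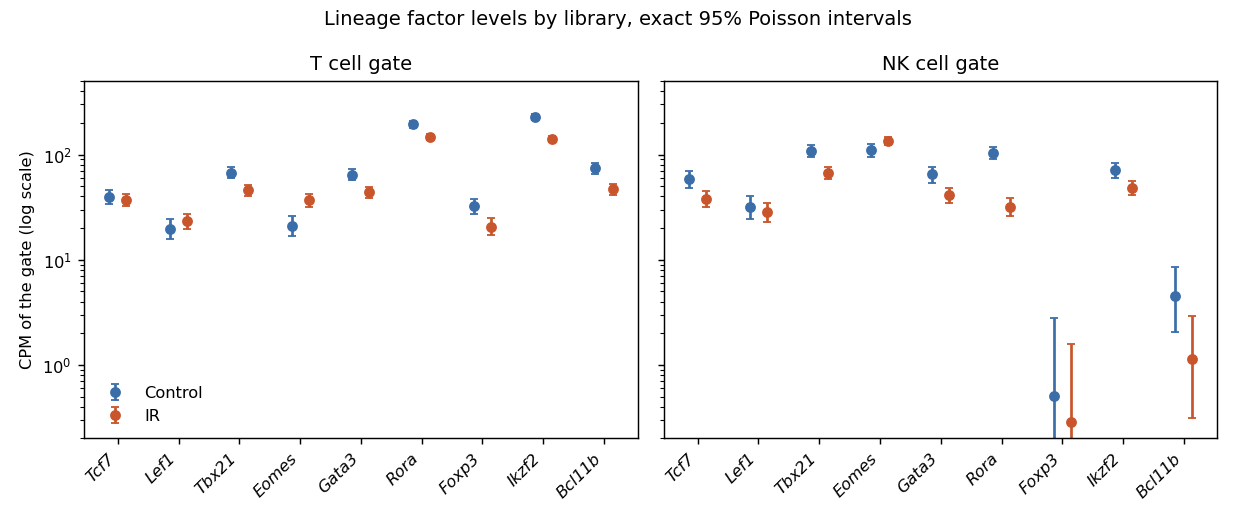
CPM of the 9 factors (log axis) in the T cell gate (left) and the NK cell gate (right) for the Control library (blue) and the IR library (orange), where bars are exact 95% Poisson intervals that cover counting error only, and bars that pass the lower edge are clipped. Foxp3 and Bcl11b sit near the bottom in NK cells, and Eomes is the member whose IR point lies clearly above its Control point in T cells.

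Eomes had 109.9 CPM in Control (219 UMIs, 95% interval 95.8 to 125) and 134 CPM in IR (467 UMIs, 95% interval 122 to 147) in the NK gate. In the T gate it had 21.1 CPM in Control (89 UMIs, 95% interval 16.9 to 25.9) and 36.7 CPM in IR (216 UMIs, 95% interval 31.9 to 41.9). Both NK levels lay above both T levels, with NK over T log2 CPM ratios of 2.38 in Control and 1.87 in IR. Tbx21 had 108 CPM in Control (215 UMIs, 95% interval 93.9 to 123) and 67.3 CPM in IR (235 UMIs, 95% interval 59.0 to 76.5) in NK cells. Its T cell levels were 67.2 CPM in Control (284 UMIs, 95% interval 59.6 to 75.5) and 45.8 CPM in IR (270 UMIs, 95% interval 40.5 to 51.6). The NK over T log2 CPM ratio of Tbx21 was 0.68 in Control, past the 1.5-fold line, and 0.56 in IR, short of it, although the intervals did not overlap in either library.

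Bcl11b, the T cell commitment factor, gave 9 NK-gate UMIs in Control and 4 in IR, against 312 and 275 in the T gate. Its NK over T log2 CPM ratios were -4.03 and -5.35. Foxp3 gave 1 NK-gate UMI in each library against 136 and 122 in the T gate. For Foxp3 the 95% intervals of the log2 CPM ratio ran from -11.32 to -3.50 in Control and from -11.49 to -3.67 in IR, since 1 UMI fixes the ratio poorly. Ikzf2 was lower in NK cells by a log2 CPM ratio of -1.68 in Control and -1.56 in IR. Rora was lower by -0.90 and -2.21 on that scale. Gata3 stood level, with NK over T log2 CPM ratios of 0.01 (95% interval -0.30 to 0.32) and -0.08 (-0.38 to 0.22). Tcf7 and Lef1 were not called in either library, with ratios of 0.58 and 0.69 in Control and 0.04 and 0.29 in IR. The Control values were near a call: Tcf7 lay just short of the 1.5-fold line with intervals apart, and Lef1 past it with overlapping intervals. Over 19 alternative settings in Control, Tcf7 was called higher in 9 and Lef1 in 8. In IR these counts were 0 and 1.

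The second comparison asked how T cells of irradiated tumors differed from those of untreated ones. On the CPM scale, Eomes rose and Foxp3, Ikzf2 and Bcl11b fell in the T gate. That is 1 of 9 members higher, where 6.48% of 10872 genes tested were, and 3 lower, where 2.53% were. The median log2 CPM ratio of the 9 members was -0.55, against -0.01 over all genes tested. Counted per cell, none of the 9 factors was lower in IR: the 3 that fell in CPM lay between 0.056 and 0.10 log2 units above Control.

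Eomes, as given above, went from 89 UMIs in Control to 216 in IR, a log2 CPM ratio of 0.80 (95% interval 0.44 to 1.17). The intervals of the libraries were well apart. Per cell the rise was from 0.138 to 0.401 UMIs (log2 1.54), a scale that moves every gene of the gate up by the same amount, since IR cells held more UMIs. It was as large without the cells high in myeloid RNA (log2 CPM ratio 0.93). NK marker genes, Eomes among them, summed to 1785 CPM in Control and 2063 CPM in IR in the T gate. Most of the Eomes RNA lay in few cells: T-gate barcodes that also had an Ncr1 UMI, 70 in Control and 68 in IR, held 56 of the 89 and 135 of the 216 Eomes UMIs. Without them Eomes had 9.41 CPM in Control (33 UMIs) and 16.9 CPM in IR (81 UMIs), a log2 CPM ratio of 0.84 (95% interval 0.24 to 1.47), and the same 4 of 9 members were called in the same directions (6.64% of 10625 genes were called higher and 2.51% lower). Eomes also rose outside the lymphocytes, from 2.40 to 9.46 CPM in macrophage-gate cells and from 10.3 to 32.6 CPM in empty droplets. Free RNA made up an estimated 2.32% of T-gate UMIs in Control and 2.19% in IR, and with it subtracted the T-gate log2 CPM ratio of Eomes was 0.79. That estimate rests on C1q UMIs, which the gate caps at 5 per cell, so the gate itself holds it low. The part of free RNA in the rise was not tested.

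Ikzf2 had 226 CPM in Control (956 UMIs, 95% interval 212 to 241) and 141 CPM in IR (832 UMIs, 95% interval 132 to 151) in T cells. This gave a log2 CPM ratio of -0.68 (95% interval -0.82 to -0.54), while UMIs per cell went from 1.48 to 1.54. Foxp3 had 32.2 CPM in Control (136 UMIs, 95% interval 27.0 to 38.1) and 20.7 CPM in IR (122 UMIs, 95% interval 17.2 to 24.7), a log2 CPM ratio of -0.64 (95% interval -1.0 to -0.27), with 0.211 UMIs per cell in Control and 0.226 in IR. Bcl11b had 73.8 CPM in Control (312 UMIs, 95% interval 65.8 to 82.5) and 46.7 CPM in IR (275 UMIs, 95% interval 41.3 to 52.5), a log2 CPM ratio of -0.66 (95% interval -0.90 to -0.42), with 0.484 UMIs per cell in Control and 0.510 in IR. For these 3 genes the IR interval lay below the Control interval on the CPM scale. Without the cells high in myeloid RNA the log2 CPM ratios were -0.81 for Ikzf2, -0.97 for Foxp3 and -0.80 for Bcl11b, and the same 4 members were called (5.18% of 10140 genes were called higher and 2.56% lower). In the T-gate cells that remained, UMIs per cell of the 3 genes were lower in IR, by log2 values of -0.13, -0.29 and -0.12.

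Tbx21 went from 67.2 to 45.8 CPM (284 and 270 UMIs), Gata3 from 64.1 to 43.6 CPM (271 and 257 UMIs) and Rora from 194 to 147 CPM (818 and 868 UMIs). Their log2 CPM ratios of -0.55, -0.56 and -0.39 stayed within the 1.5-fold line, although the intervals of the libraries were apart. Tcf7 had 39.3 CPM in Control (166 UMIs) and 37.0 CPM in IR (218 UMIs) and Lef1 19.6 CPM in Control (83 UMIs) and 23.2 CPM in IR (137 UMIs). On the CPM scale the intervals of these 2 related factors overlapped between libraries, while per cell both were called higher in IR (log2 0.65 and 0.98). Over 18 alternative settings of gates, filters and scales, Eomes was called higher in all 18, Foxp3 and Ikzf2 lower in 16 and Bcl11b in 14, and all 3 calls were lost with no C1q ceiling and per cell. Some of these settings changed only the ratio and kept the intervals of the main sums, as described under processing. The log2 ratios of all 9 genes on both scales are plotted below.

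**Figure D2:**
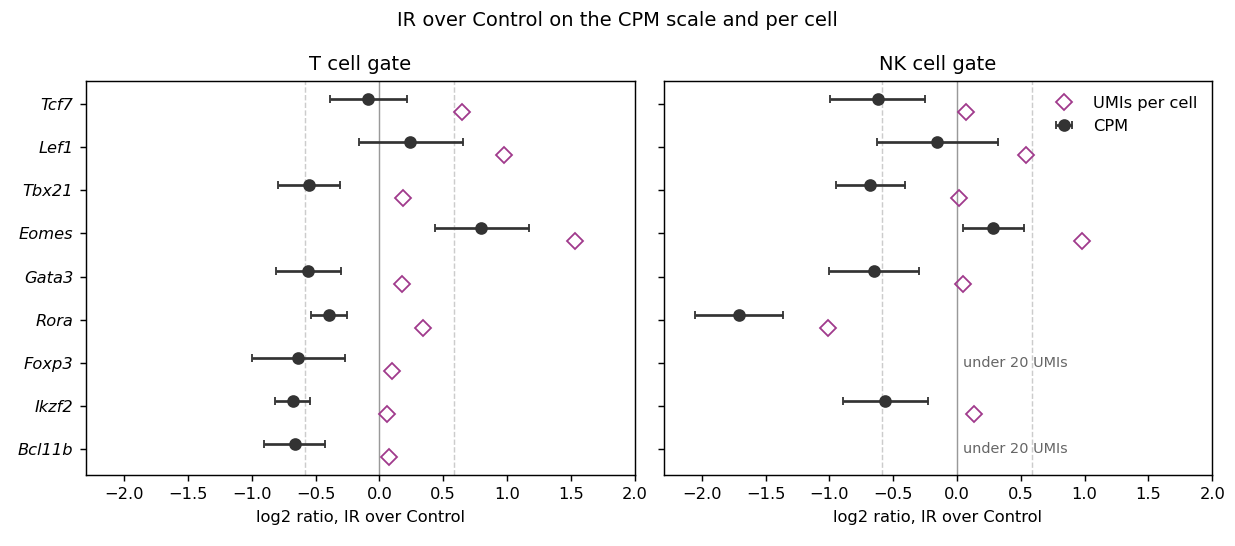
Log2 ratio of IR over Control for each factor in the T cell gate (left) and the NK cell gate (right), where filled circles are CPM ratios with exact conditional 95% intervals, open diamonds are ratios of UMIs per cell, dashed lines mark 1.5-fold, and Foxp3 and Bcl11b, with under 20 UMIs in NK cells, are not plotted there. Each diamond lies to the right of its circle, and among the factors plotted, Rora in NK cells is the one left of 0 on both scales.

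In NK cells 4 of the 7 members with enough UMIs were lower in IR on the CPM scale: Rora, Tbx21, Gata3 and Tcf7. None was higher. Over 9369 genes tested, 3.36% were called lower and 4.49% higher. The median log2 CPM ratio of the 7 members was -0.62, against -0.02 over all genes tested.

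Rora showed the largest IR over Control difference on the CPM scale in either gate among members with at least 20 UMIs. It had 104 CPM in Control (207 UMIs, 95% interval 90.2 to 119) and 31.8 CPM in IR (111 UMIs, 95% interval 26.2 to 38.3) in the NK gate, a log2 CPM ratio of -1.71 (95% interval -2.05 to -1.37). Unlike the other 6 members tested it was also lower per cell, from 0.845 in Control to 0.419 UMIs per cell in IR (log2 -1.01). The share of NK cells with a Rora UMI, after every cell was thinned to 2000 UMIs, was 12.8% of Control cells (28 of 218, 95% interval 8.71% to 18%) and 5.10% of IR cells (13 of 255, 95% interval 2.74% to 8.56%). In macrophage-gate cells, which are not lymphocytes, it was 2.65% and 0.773% at the same depth. Empty droplets, given below, held Rora at a higher CPM than these cells, so this share is not an upper limit for free RNA. Free RNA, estimated from C1q UMIs, made up 1.21% of NK-gate UMIs in Control and 0.943% in IR, an estimate held low by the gate's cap of 5 C1q UMIs per cell. The fall remained without the cells high in myeloid RNA (log2 CPM ratio -1.53).

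Tbx21 fell in NK cells, with a log2 CPM ratio of -0.68 (95% interval -0.95 to -0.41), on the levels given above. Gata3 had 64.7 CPM in Control (129 UMIs, 95% interval 54.0 to 76.9) and 41.3 CPM in IR (144 UMIs, 95% interval 34.8 to 48.6), a log2 CPM ratio of -0.65 (95% interval -1.0 to -0.30). Tcf7 had 58.7 CPM in Control (117 UMIs, 95% interval 48.5 to 70.3) and 38.1 CPM in IR (133 UMIs, 95% interval 31.9 to 45.2), a log2 CPM ratio of -0.62 (95% interval -0.99 to -0.25). Per cell these 3 genes lay 0.015 to 0.072 log2 units above Control. Without the cells high in myeloid RNA, Tcf7 and Tbx21 were called again and Gata3 was not, with log2 CPM ratios of -0.65, -0.64 and -0.57 (3.56% of 8922 genes were called lower and 2.69% higher). Ikzf2, at 70.7 CPM in Control (141 UMIs) and 47.9 CPM in IR (167 UMIs), lay just short of the 1.5-fold line with a log2 CPM ratio of -0.56 (95% interval -0.90 to -0.23). Lef1 had 31.6 CPM in Control (63 UMIs) and 28.4 CPM in IR (99 UMIs) and overlapping intervals. Eomes was not called on the CPM scale, with a log2 CPM ratio of 0.28 (95% interval 0.05 to 0.52), while its UMIs per cell went from 0.894 to 1.76 (log2 0.98). Over 18 alternative settings Rora was called lower in all 18, Tbx21 in 14, Tcf7 in 11 and Gata3 in 10. Rora was the 1 member called when UMIs were counted relative to 32 other T and NK transcription factors.

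The NK gate was then split by the RNA it carried. Barcodes with more UMIs of the Ly49 receptor genes Klra3, Klra4, Klra7, Klra8 and Klra9 than of the granzyme genes Gzmc, Gzmd, Gzme, Gzmf and Gzmg formed the Ly49 side (65 Control and 105 IR cells), and the reverse formed the Gzmc side (168 and 148 cells). The 2 sides carried different factors. In Control, Eomes and Tcf7 were called higher and Rora and Ikzf2 lower on the Ly49 side, that is 2 higher and 2 lower of 7 members tested, where 4.22% and 1.99% of 6950 genes were. In IR the same 4 genes were called in the same directions, where 11.7% and 2.87% of 8431 genes were called higher and lower.

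Eomes had 287 CPM in Control (102 UMIs, 95% interval 234 to 349) and 201 CPM in IR (167 UMIs, 95% interval 172 to 234) on the Ly49 side. On the Gzmc side it had 71.1 CPM in Control (112 UMIs, 95% interval 58.5 to 85.5) and 114 CPM in IR (293 UMIs, 95% interval 101 to 127). The sides thus lay far apart in Control, with a Ly49 over Gzmc log2 CPM ratio of 2.02, and closer in IR, at 0.83. Within the Gzmc side Eomes rose, with a log2 CPM ratio of 0.68 (95% interval 0.36 to 1.0), and from 0.667 to 1.98 UMIs per cell. The Ly49 side went the other way in CPM, with a log2 CPM ratio of -0.51 (95% interval -0.88 to -0.14) and overlapping Poisson intervals, and stood level per cell (1.57 and 1.59 UMIs).

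Rora was nearly absent from the Ly49 side, with 3 UMIs in Control and 7 in IR. On the Gzmc side it had 121 CPM in Control (191 UMIs, 95% interval 105 to 139.7) and 38.7 CPM in IR (100 UMIs, 95% interval 31.5 to 47.1), a log2 CPM ratio of -1.65 (95% interval -2.01 to -1.29). The fall of Rora therefore lay on the Gzmc side, where UMIs per cell also went down, from 1.14 to 0.676. Ikzf2 likewise had 5 and 23 UMIs on the Ly49 side against 132 and 140 on the Gzmc side, and on the Gzmc side its CPM fell by 0.63 on the log2 scale. Tcf7 had 101 CPM in Control (36 UMIs) and 65.1 CPM in IR (54 UMIs) on the Ly49 side. Its levels on the Gzmc side were 48.9 CPM in Control (77 UMIs) and 28.7 CPM in IR (74 UMIs), so it was higher on the Ly49 side in each library.

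In the Gzmc side as a whole, Eomes was the 1 member of 7 called higher in IR and Tcf7, Tbx21, Gata3, Rora and Ikzf2 were the 5 called lower, where 2.8% and 3.94% of 8656 genes were. Per cell, 4 of these 5 lay above Control, by log2 0.13 for Tcf7, 0.29 for Tbx21, 0.17 for Gata3 and 0.27 for Ikzf2, and Rora below it by -0.75. Without the cells high in myeloid RNA the same 6 were called, with log2 CPM ratios of 0.71 for Eomes and -1.50 for Rora (2.23% of 8346 genes were called higher and 4.45% lower). On the Ly49 side Tbx21 alone of 6 members tested was called, lower with a log2 CPM ratio of -0.95, where 1.95% of 5950 genes were called lower and 5.45% higher, and without the cells high in myeloid RNA no member of 6 tested was called there (2.21% of 5113 genes were called higher and 1.49% lower). Gzmc-side cells had a median of 8493 UMIs in Control and 14558 in IR, and Ly49-side cells 4063 and 5720. The levels on both sides are plotted below.

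**Figure D3:**
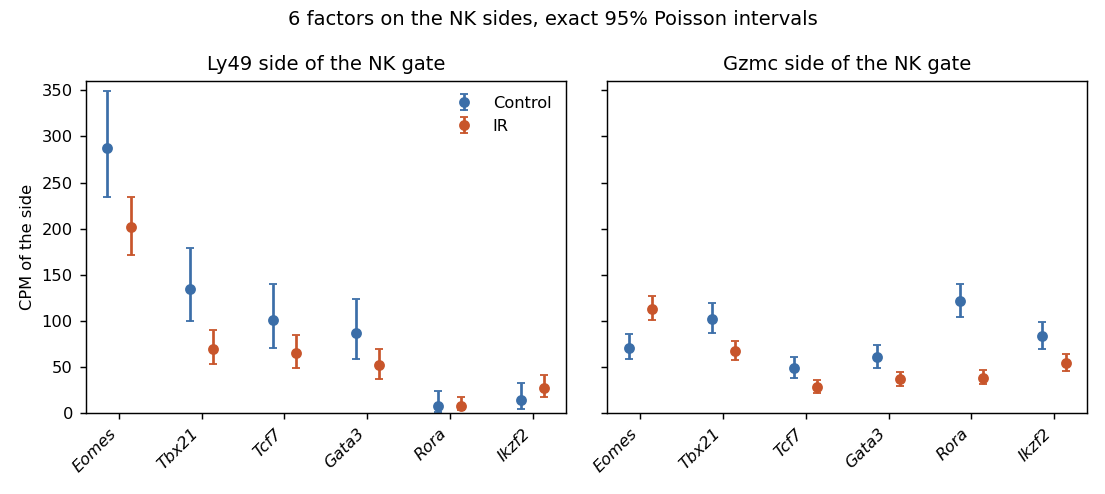
CPM (linear axis) of 6 factors on the Ly49 side (left) and the Gzmc side (right) of the NK cell gate in Control (blue) and IR (orange), with exact 95% Poisson intervals. On the Gzmc side Eomes is higher in IR while the other 5 factors are lower, and Rora and Ikzf2 are low on the Ly49 side.

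Single NK cells showed the same contrast between Eomes and Rora. In Control, the 101 NK cells with an Eomes UMI carried Rora at 30.9 CPM (27 UMIs) and the 144 without one at 161 CPM (180 UMIs). In IR the levels were 9.65 CPM (23 UMIs) in 170 cells and 79.6 CPM (88 UMIs) in 95 cells. Ikzf2 was also lower in cells with an Eomes UMI, by log2 CPM ratios of -1.53 and -0.88. These were the 2 members besides Eomes called in each library, where 1.63% of 7058 genes were called lower and 1.01% higher in Control and 4.89% and 1.13% of 8505 genes in IR. Tbx21, the other T-box factor, did not separate these cells, with log2 CPM ratios of -0.32 (95% interval -0.73 to 0.09) and -0.42 (-0.81 to -0.03). Cells are not replicates, so this describes the 2 libraries only.

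T cells were divided by their coreceptor RNA. Cells with a Cd4 UMI and none of Cd8a or Cd8b1 numbered 83 in Control and 73 in IR, those with the reverse 242 and 180, and those with neither 309 and 271. In Control, CD4 cells had higher CPM of 4 of 8 members tested than CD8 cells, namely Foxp3, Ikzf2, Rora and Gata3, and lower CPM of none, where 5.69% and 2.15% of 7772 genes were called. In IR, Foxp3, Ikzf2, Rora and Bcl11b were the 4 of 9 called higher and none was lower, where 3.52% and 1.97% of 8476 genes were. Foxp3 was highest in the CD4 cells of this split, with 201 CPM in Control (86 UMIs, 95% interval 161 to 249) and 91.5 CPM in IR (76 UMIs, 95% interval 72.1 to 115) there. Without thinning, 37.3% of Control and 28.8% of IR CD4 cells had a Foxp3 UMI. In CD8 cells Foxp3 gave 7 and 10 UMIs. A further 40 and 22 Foxp3 UMIs lay in cells with neither coreceptor, and 3 and 14 in cells with both.

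Among CD4 cells, Foxp3, Ikzf2, Rora and Gata3 fell in CPM, 4 of 8 members tested, where 2.74% of 6463 genes were called lower, and none rose, where 4.72% were. Foxp3 had a log2 CPM ratio of -1.14 (95% interval -1.60 to -0.68) and stood at 1.04 UMIs per cell in both libraries. Ikzf2 had 475 CPM in Control (203 UMIs, 95% interval 412 to 545) and 269.7 CPM in IR (224 UMIs, 95% interval 236 to 307), a log2 CPM ratio of -0.82 (95% interval -1.10 to -0.54). Rora had 407 CPM in Control (174 UMIs, 95% interval 349 to 473) and 243 CPM in IR (202 UMIs, 95% interval 211 to 279), a log2 CPM ratio of -0.74 (95% interval -1.04 to -0.44). Gata3 had 119 CPM in Control (51 UMIs) and 67.4 CPM in IR (56 UMIs), a log2 CPM ratio of -0.82 (95% interval -1.40 to -0.25). Per cell these 3 lay above Control, by log2 0.33 for Ikzf2, 0.40 for Rora and 0.32 for Gata3. The median CD4 cell had 3759 UMIs in Control and 7585 in IR. Cells with over 0.2% myeloid UMIs were 16.9% of Control and 35.6% of IR CD4 cells. Without them Foxp3, Ikzf2 and Rora were called lower (log2 CPM ratios of -1.57, -0.98 and -0.76), where 2.66% of 4583 genes were called lower and 4.32% higher, and Foxp3 was then lower per cell as well, from 1.09 to 0.766 UMIs.

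In CD8 cells Bcl11b was the 1 of 8 members tested that was called, with 81.3 CPM in Control (141 UMIs, 95% interval 68.5 to 95.9) and 52.0 CPM in IR (108 UMIs, 95% interval 42.6 to 62.8), a log2 CPM ratio of -0.65 (95% interval -1.02 to -0.27), where 1.89% of 8971 genes were called lower and 6.47% higher. Without the cells high in myeloid RNA its ratio was -0.51 and it was no longer called (1.72% of 7970 genes were called lower and 3.29% higher). Rora stood level, at 157 CPM in Control (273 UMIs) and 159 CPM in IR (331 UMIs), with a log2 CPM ratio of 0.02 (95% interval -0.22 to 0.25). Tcf7 had 17.3 CPM in Control (30 UMIs, 95% interval 11.7 to 24.7) and 28.9 CPM in IR (60 UMIs, 95% interval 22.0 to 37.2). This gave a log2 CPM ratio of 0.74 (95% interval 0.08 to 1.42), but the Poisson intervals of the libraries overlapped and it was not called. Lef1 followed at 13 and 29 UMIs, with a log2 CPM ratio of 0.90 (95% interval -0.09 to 1.96).

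Cells with neither coreceptor held most of the Eomes, Tcf7 and Lef1 of the T gate: 39.9 CPM in Control (78 UMIs) and 69.7 CPM in IR (188 UMIs) for Eomes and 62.9 CPM in Control (123 UMIs) and 46.3 CPM in IR (125 UMIs) for Tcf7. Of these cells, 20.4% in Control and 21.8% in IR carried an Ncr1 UMI, and 35.6% and 40.2% rested on exactly 1 UMI of Cd3d or Cd3g. Eomes rose in them, with a log2 CPM ratio of 0.80 (95% interval 0.41 to 1.20), while Gata3, Rora, Foxp3, Ikzf2 and Bcl11b fell, that is 1 of 9 higher and 5 lower, where 5.11% and 2.48% of 9641 genes were. Ikzf2 had 255 CPM in Control (498 UMIs, 95% interval 233 to 278) and 120.4 CPM in IR (325 UMIs, 95% interval 108 to 134) there. All 5 of the falls also lay below Control per cell, from log2 -0.67 for Foxp3 and -0.43 for Ikzf2 to -0.02 for Gata3. The levels in the 3 subsets are plotted below.

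**Figure D4:**
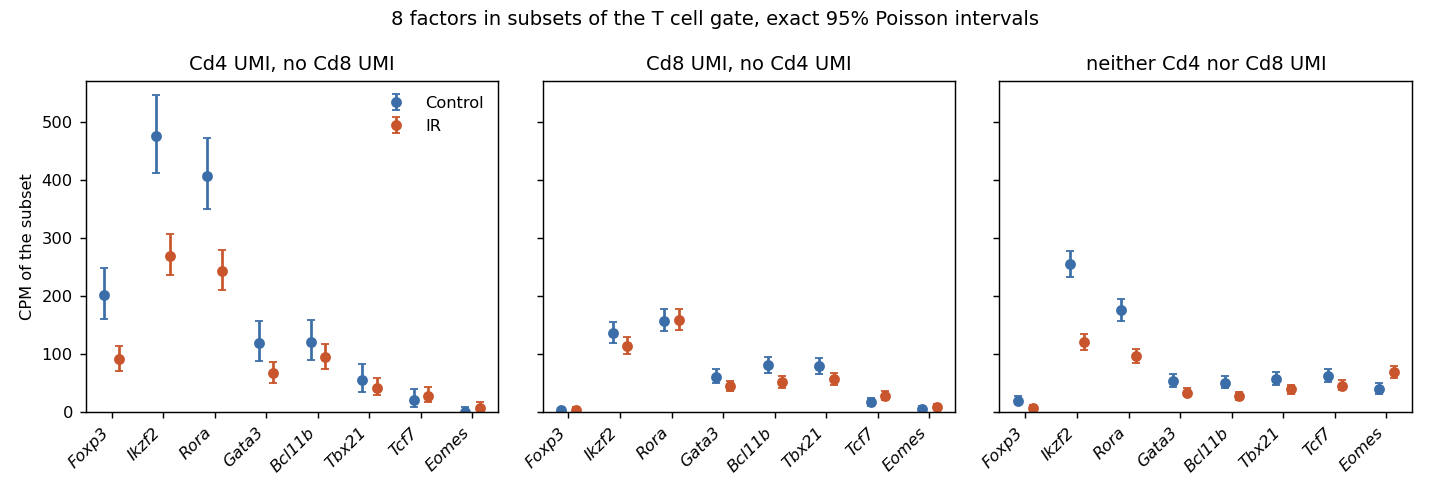
CPM (linear axis) of 8 factors in T-gate cells with a Cd4 UMI only (left), a Cd8a or Cd8b1 UMI only (middle) and neither (right), in Control (blue) and IR (orange), with exact 95% Poisson intervals. Foxp3, Ikzf2 and Rora are highest in the left panel and lower there in IR, and Eomes is seen mainly in the right panel, where it is higher in IR.

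Factors were also scored as the share of cells with a UMI, with every cell thinned to 2000 UMIs and shallower cells left out (91 T and 27 NK cells in Control, 36 and 10 in IR). Each thinned share, here and elsewhere, came from a single random draw, and the intervals do not cover the spread between draws. In T cells, Rora was found in 30.4% of Control cells (168 of 553, 95% interval 26.6% to 34.4%) and 24.7% of IR cells (124 of 503, 95% interval 20.9% to 28.7%). Ikzf2 was found in 25% of Control cells (138 of 553, 95% interval 21.4% to 28.8%) and 19.9% of IR cells (100 of 503, 95% interval 16.5% to 23.6%). At 2000 UMIs the T cell intervals of the libraries overlapped for all 9 members. At 4000 UMIs they were apart for Tbx21, at 24.1% in Control and 12% in IR, and for Lef1, at 4.46% and 11.2%. In a separate draw of the CD8 cells at 4000 UMIs the intervals of both overlapped (Tbx21 24.7% in Control and 20.3% in IR, Lef1 1.81% and 7.43%). The NK cell intervals at 2000 UMIs were apart for Rora, given above, and for Gata3, which went from 17.4% (95% interval 12.6% to 23.1%) to 7.06% (4.24% to 10.9%). At 4000 UMIs the intervals of Rora were apart again (20.6% in Control and 8.41% in IR), while those of Gata3 overlapped (19.4% and 17.3%). At 1000 UMIs both overlapped, with Rora at 8.98% and 4.15%. In a separate draw of the Gzmc side at 2000 UMIs the intervals were apart for Rora (18.8% in Control and 5.59% in IR). Those of Gata3 overlapped there (11.4% and 8.39%). Eomes was found in 22.5% of Control cells (49 of 218, 95% interval 17.1% to 28.6%) and 29.0% of IR cells (74 of 255, 95% interval 23.5% to 35.0%). Macrophage-gate cells showed 0.0679% to 2.65% across the 9 members in Control (1472 cells) and 0 to 1.29% in IR (388 cells), before thinning at median depths of 9485 and 11449 UMIs. For 0 of 388 the exact 95% upper bound is 0.946%, and 3 cells would be 0.773%. Foxp3 in NK cells (0 of 218 and 1 of 255) lay at that background. Bcl11b in NK cells (2 of 218 and 0 of 255) overlapped its own macrophage share. Unthinned, the share of NK cells with an Eomes UMI was 41.2% in Control and 64.2% in IR, and with a Rora UMI 28.6% and 13.6%.

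Foxp3 and Ikzf2 were found together. At 2000 UMIs, 30 of 33 Control T cells with Foxp3 also had Ikzf2 (90.9%, 95% interval 75.7% to 98.1%), against 108 of 520 without Foxp3 (20.8%, 17.4% to 24.5%). In IR the shares were 11 of 18 (61.1%, 35.7% to 82.7%) and 89 of 485 (18.4%, 15.0% to 22.1%). By CPM in unthinned cells, Ikzf2 was higher in cells with a Foxp3 UMI by a log2 ratio of 2.06 in Control and 2.43 in IR. Rora was higher in them by 0.97 and 0.94 on the same scale. Bcl11b was higher by 0.79 and 0.97, while Gata3 was higher in Control (0.99) and not called in IR (0.23). Besides Foxp3 itself, 4 members were thus called higher in Control and 3 in IR, where 5.11% of 9295 and 4.62% of 10006 genes were, and Tcf7 and Eomes in Control and Eomes in IR were called lower, where 2.8% and 2.78% were. Eomes gave 0 UMIs in the 60 Control cells with Foxp3 and 7 in the 36 IR cells. Tcf7 gave 2 UMIs in those Control cells (5.20 CPM, against 42.7 CPM in cells without Foxp3) and 20 in the IR cells (40.3 against 36.7 CPM). Lef1 accompanied Tcf7 in 4 of 57 Control cells (7.02%) and 7 of 47 IR cells (14.9%), against 4.03% and 4.61% of the cells without Tcf7, with overlapping intervals in both libraries.

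Levels were then compared across 10 gates of at least 30 cells per library, 5 of T and NK cells and 5 of other cells. Bcl11b, Lef1 and Foxp3 stayed at or under 1.22 CPM in each myeloid, dendritic and collagen-rich gate. Tcf7 reached 65.8 CPM in Control (52 UMIs, 95% interval 49.1 to 86.3) and 69.7 CPM in IR (94 UMIs, 95% interval 56.3 to 85.3) in dendritic cells with UMIs of Ccr7 and Fscn1, which mark mature migratory DCs. In the same cells Lef1 gave 0 and 1 UMIs and Bcl11b 0 in both libraries. Cells with at least 10 collagen UMIs held Tcf7 at 25 CPM in Control and 17.6 CPM in IR. Rora was found at 22.8 and 11.1 CPM in mature DCs, 14.8 and 8.82 CPM in monocytes and 10.9 and 8.70 CPM in macrophages. In empty droplets, which hold free RNA, Rora stood at 48.4 and 43.8 CPM and Tcf7 at 18 and 16.5 CPM. All 20 levels of each factor are mapped below.

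**Figure D5:**
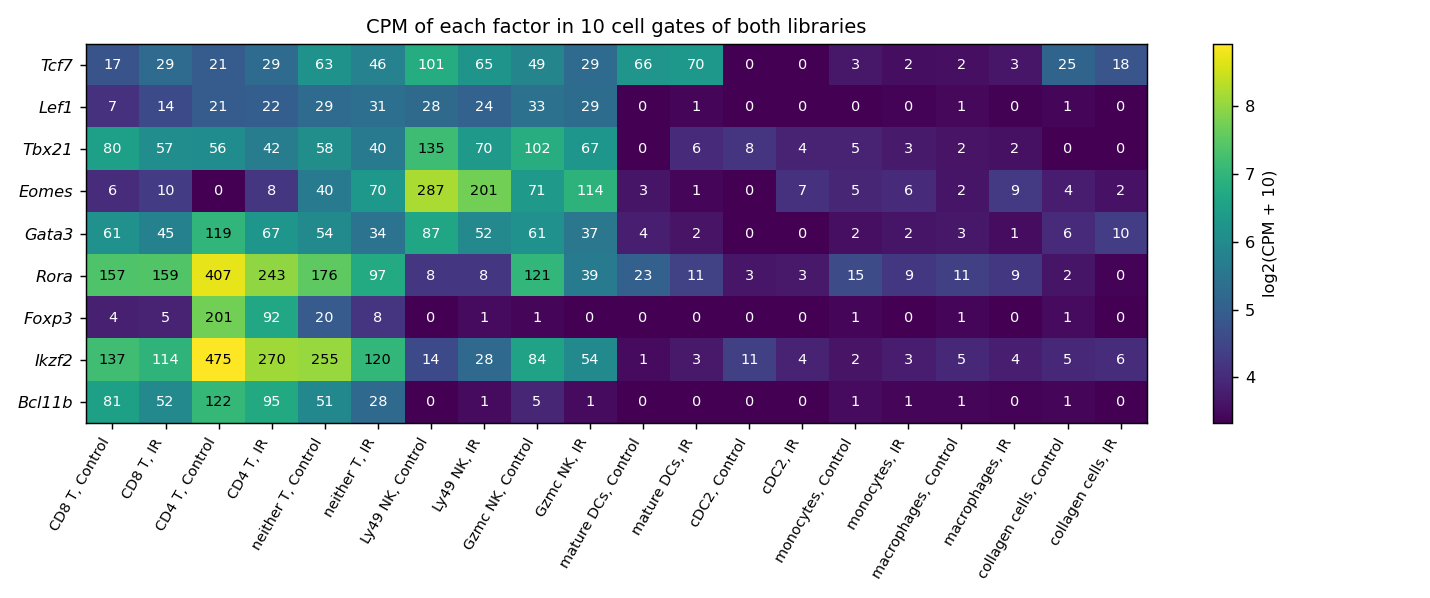
CPM of each factor (numbers, rounded) in 10 gates of both libraries, coloured by log2 of CPM plus 10. T cell subsets and NK sides stand at the left and hold most of the signal, and Tcf7 is also seen in mature DCs (65.8 and 69.7 CPM) and in collagen-rich cells.

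Within these 20 levels, the order of the gates differed between members. Eomes ran from the Ly49 side over the Gzmc side to T cells with neither coreceptor, with intervals apart at each step in both libraries. Foxp3 and Ikzf2 were highest in CD4 T cells, with Foxp3 next in T cells with neither coreceptor. The related T-box factor Tbx21 stood between 39.6 and 135 CPM in all T and NK gates, and in Control the neighbouring levels of CD8 T cells (79.6 CPM) and of the Gzmc side (102 CPM) had overlapping intervals. Gata3 was highest in CD4 T cells in Control (119 CPM) and had overlapping intervals there with the Ly49 side (87.3 CPM).

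The genes most like each member over these 20 levels were ranked by Pearson correlation of log2(CPM + 10) among 5448 genes, as a description without a test, since gates share libraries and depth. Eomes was closest to Klrb1a (r = 0.98), Klra9 (0.98) and Klra8 (0.97), which encode NK receptors, and the last 2 were used to form the NK sides. Foxp3 was closest to Izumo1r (0.98), a receptor of regulatory T cells, Penk (0.96) and Cpm (0.94). Ikzf2 was closest to the T cell surface receptors Ctla4 (0.96) and Icos (0.96) and to Tnfsf11 (0.94), and Rora to Tnfsf11 (0.95), Cxcr6 (0.95) and Ikzf2 (0.94). Bcl11b was closest to Cd3d (0.98), Trac (0.98) and Cd3g (0.98), of which Cd3d and Cd3g set the T gate. Gata3 was closest to Ets1 (0.97), Ikzf3 (0.97) and Gimap9 (0.97), Tbx21 to Gm19585 (0.99), Sla2 (0.98) and Skap1 (0.98), Lef1 to Itgb3 (0.97), Gimap6 (0.96) and Sept1 (0.95), and Tcf7 to Serpinb9 (0.90), Serpinb6b (0.89) and H2-Q4 (0.87).

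Genes beyond the 9 were read against all genes tested, of which 6.48% were called higher and 2.53% lower in T cells and 4.49% and 3.36% in NK cells. The first list held 32 other transcription factors of T and NK cells. In T cells 3 of 31 tested were higher in IR, with a median log2 CPM ratio of -0.07, against -0.01 over all genes tested. Those higher were Zeb2 (0.91), Id3 (0.88) and Klf2 (0.59), and among those lower were Tox (-1.37), a factor of exhausted T cells, and Ets1 (-0.61). Zeb2 is also high in myeloid cells, whose RNA was higher in the IR gates by the marker sums given above, and the part of that RNA in its ratio was not tested. In NK cells 3 of 27 were higher and 7 lower, with a median of -0.28 against -0.02. Zeb2 (1.52), Prdm1 (1.39) and Runx1 (0.60) were the 3 higher, and Tox (-1.21), Ets1 (-0.90) and Ikzf3 (-0.81) lay lowest.

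Genes of the programs that the members direct were taken from fixed lists. Of 11 T-box effector genes tested in T cells, 3 were higher in IR and 3 lower, with Gzmk at a log2 CPM ratio of 1.25, Gzmb at 1.24 and Gzma at 0.65 on one side and Ifng at -0.97, Klrg1 at -0.78 and Cx3cr1 at -0.74 on the other. The median was -0.09 on that scale. In NK cells 3 of 10 were higher, Gzmb (1.25), Gzma (0.72) and Prf1 (0.63), and none was lower, with a median of 0.25. Of 11 regulatory T cell genes, 4 were lower in T cells and none higher, with a median log2 CPM ratio of -0.42, and Il10 (-1.27), Itgae (-0.99) and Nrp1 (-0.83) lay lowest. In NK cells 1 of 7 of these genes was lower, Ctla4 (-0.63), with a median of -0.31. Of 8 type 2 lymphocyte genes tested in T cells, Il4 (3.20, from 5 to 64 UMIs) was higher and Areg (-0.96) and Klrg1 (-0.78) were lower, and in NK cells Areg (2.38, from 8 to 73 UMIs) was the 1 of 3 called. The medians of this list were -0.26 and 0.17.

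Naive and stem-like T cell genes, a program linked to Tcf7 and Lef1, had 2 of 10 lower in T cells, Xcl1 (-1.35) and Cd28 (-0.84). In NK cells none of 9 was higher and 3 were lower, Xcl1 (-1.17), Ltb (-0.95) and Cd28 (-0.59). The medians were -0.03 in T cells and -0.01 in NK cells. Among exhaustion receptors, Entpd1 (0.65) was the 1 of 7 called in T cells, and it was higher. In NK cells Havcr2 (1.23) was higher and Pdcd1 (-1.23), Cd160 (-0.96) and Lag3 (-0.68) were lower, 4 of 6 tested, and the medians were -0.24 in T cells and -0.55 in NK cells. The list of 10 T cell markers itself had a median log2 CPM ratio of -0.35 in T cells, with 1 of 10 called lower, and the 11 cycling genes had -0.32 in T cells with none called and 0.23 in NK cells with 1 higher and 1 lower.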

How the data were processed

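Single-cell RNA-seq of CD45+ cells was available as 2 libraries, Control and IR, with 1 library per group. The authors deposited unfiltered UMI count matrices made with Cell Ranger against mm10 (version 6.0.1 in the submitters' processing notes, a version 4 format line in the matrix header). Counts were used as deposited, after 10x 3′ capture, so each value is a number of molecules. Whether counting used strand was not given in the sources used here.

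UMIs were summed per gate and library in Python 3.11.15 (scipy 1.17.1) and scaled to CPM. Poisson intervals of counts, conditional intervals of ratios and Clopper-Pearson intervals of shares were exact, at the 95% level, and covered counting error only. Among gates of at least 30 cells per library with no cells left out, the smallest sum was the Ly49 side in Control (355053 UMIs). There 3 UMIs equal 8.45 CPM. Without the cells high in myeloid RNA, smaller Control sums were 330763 UMIs on the Ly49 side and 280914 in CD4 T cells. Mast cells or basophils, with fewer than 30 cells in Control, had sums of 79624 UMIs in Control and 290586 in IR. In these smaller sums 3 UMIs equal a higher CPM. A gene was called at a CPM ratio of at least 1.5 with Poisson intervals apart and at least 20 UMIs over the compared sums. A sum without any UMI of the gene was set to 3 UMIs for the ratio. In simulated data with 200 genes changed 4-fold, this recovered 200 in T cells and 197 in NK cells, with 24 of 10674 and 28 of 9134 unchanged genes called. The simulation held counting error only, with no difference between libraries, and no changes near 1.5-fold. It therefore does not show how far calls of that size, or calls between single libraries, can be relied on.

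The members, gene lists and tests were chosen with earlier results of these data known. All 9 members were named, together with the 3 called genes of largest ratio per direction in 6 lists and the 3 genes most like each member, except that some list results are not reported here. No doublets were removed in the main analysis. Removal of the 6% highest Scrublet scores (scanpy 1.11.5), TMM scaling (edgeR 4.0.16) and other gates, filters and totals were alternatives. With each cell weighted equally, with free RNA subtracted and with the mix of cell subsets held at that of Control, only the ratio was recomputed. The intervals of the main sums were kept for those calls, so these settings are partial checks. Leaving out cells over 0.2% myeloid UMIs or T-gate cells with Ncr1, UMIs per cell, and scaling to other transcription factors were added after seeing the data. Promoters and positions came from RefSeq (GRCm38.p6) and GENCODE vM21.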

Additional observations from a re-analysis of the deposited data

Results flagged for a closer look

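Eomes moved in opposite directions on the 2 sides of the NK gate. On the Ly49 side its log2 CPM ratio of IR over Control was -0.51, and on the Gzmc side it was 0.68, with neither 95% interval reaching 0. The difference between the sides was not tested, since each side has 1 library per group. Without the cells over 0.2% myeloid UMIs the ratios were -0.22 on the Ly49 side, with an interval that then spanned 0, and 0.71 on the Gzmc side.

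Eomes RNA was also higher in IR in material outside the T and NK gates. In macrophage-gate cells it stood at 2.40 CPM in Control (37 UMIs) and 9.46 CPM in IR (50 UMIs). In empty droplets of at most 100 UMIs it stood at 10.3 CPM in Control (55 UMIs) and 32.6 CPM in IR (130 UMIs). With the expected free RNA subtracted, the log2 CPM ratio of Eomes in the T gate was 0.79, against 0.80 before. The expected amount came from C1q UMIs, which the gate caps at 5 per cell, so little could be subtracted. The part of free RNA in the T-gate rise was not tested.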

How the results depend on the processing

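No paired analysis was possible because each group has 1 library. Of 74 alternative counts of called members, 67 stayed within 1.5 times the main count. This compares numbers of calls only, and the genes called could change. Per cell in T cells, Eomes, Tcf7 and Lef1 were called higher (log2 0.65 for Tcf7 and 0.98 for Lef1), while Foxp3, Ikzf2 and Bcl11b were not called. With no C1q ceiling, 1 of the 4 T cell calls was left (Eomes). For NK cells the count was 2 with no C1q ceiling, with at least 2 Ncr1 UMIs, with a gate from Ncr1, Klrb1c and Klre1 without Cd3e, and per cell, and 1 with each cell weighted equally and relative to 32 other transcription factors. The 2 per-cell calls in NK cells were Rora, lower, and Eomes, higher (log2 0.98). Per cell, log2 ratios turned from negative to 0.10 for Foxp3, 0.056 for Ikzf2 and 0.075 for Bcl11b in T cells and to 0.072 for Tcf7, 0.015 for Tbx21 and 0.045 for Gata3 in NK cells. These scales differ by the mean UMIs per cell, which were higher in IR, and no other alternative reversed a called direction. TMM scaling moved NK over T ratios by 0.14 (Control) and 0.16 (IR) and changed IR over Control by at most 0.03.

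The share of barcodes in the T gate moved in Control to 24.0% (500 UMIs), 29.6% (no C1q UMI), 23.7% (no C1q ceiling), 21.1% (2 or more Cd3d and Cd3g UMIs), 38.1% (low myeloid RNA) and 23.5% (no Ncr1), and in IR to 15.4%, 28% and 17.7% under the last 3. The NK gate moved in Control to 8.49% (500 UMIs), 12.4% (no C1q UMI), 5.75% (no C1q ceiling), 6.26% (2 or more Ncr1 UMIs), 12.2% (3-gene gate) and 16.7% (low myeloid RNA), and in IR to 8.21%, 5.73%, 14.5% and 18.4% under the last 4. The cause of these moves was not tested beyond the change of gate. Shares of cells with a UMI moved with the thinning depth in 84 of 108 cases.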

Other observations

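Further cell groups held members outside the T and NK gates. Mast cells or basophils carried Ikzf2 at 75.4 CPM in Control (6 UMIs in 27 cells) and 82.6 CPM in IR (24 UMIs in 60 cells). In mature DCs the Tcf7 level differed little between libraries, with 52 UMIs in 103 Control cells and 94 in 128 IR cells.

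At 2000 UMIs, Tbx21 was found in 28.6% of Control T cells with Eomes (6 of 21) and 11.5% of those without it (61 of 532), and in IR in 14.3% (4 of 28) and 7.79% (37 of 475). In NK cells the shares were 18.4% and 18.3% in Control and 12.2% and 15.5% in IR, so the 2 T-box factors were not found together more often there.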
